A study of Homo sapiens with 2 samples.

Results

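Respiratory complex I is the NADH:ubiquinone oxidoreductase of the inner mitochondrial membrane, and most of its subunits and several of its assembly factors are encoded by nuclear genes with the prefix NDUF. The genes described here were the protein-coding genes whose symbols start with NDUFA, NDUFB, NDUFC, NDUFS or NDUFV. They numbered 48 of 38637 genes listed, or of 19439 protein-coding genes listed. Of the 48 genes, 7 encode core subunits, 30 accessory subunits and 8 assembly factors (NDUFAF1 to NDUFAF8), and 3 are neither (NDUFA4, NDUFA4L2 and the read-through gene NDUFC2-KCTD14). RNA was measured in H1299 cells (an established line from a lung carcinoma), whose genotype is labelled wild type in both groups. The first group was a PHF12 knockdown (PHF12 KD), whose sample title carries the prefix si. The second was a control labelled as having had no treatment, although its title ends in nc. The labels do not name the knockdown reagent or say whether any was added to the control cells. Each group was 1 poly(A)-selected library, so no difference below has a replicate check, and every interval is a 95% interval for counting error only.

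Complex I takes electrons from NADH, passes them along a chain of iron-sulfur clusters to ubiquinone, and couples this to proton pumping across the membrane. Its matrix arm holds the flavin, the clusters and the quinone site, and its membrane arm pumps protons. The core subunits are those conserved from bacteria, while accessory subunits surround them and assembly factors bind only intermediates. The mitochondrially encoded core subunits were not analysed here, since the mitochondrial genes in the table were 22 tRNA and 2 rRNA genes.

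The PHF12 KD library held 26084594 counts and the control library 24740581 counts. PHF12, a PHD-finger protein of the Sin3 histone deacetylase corepressor, had 756 counts in the PHF12 KD library and 947 in the control library, a log2 ratio of −0.41 (−0.55 to −0.27), in the direction its label states. Among markers of the line, the keratin genes KRT8 and KRT18 and the mesenchymal filament gene VIM were abundant, at 888, 1772 and 4876 TPM (transcript counts corrected for gene length and scaled to a sum of 1000000) in the PHF12 KD library and 1147, 2189 and 5349 TPM in the control library. PTPRC and CD3E of leukocytes and SFTPC of alveolar cells had 0 counts in both libraries, and PECAM1 of endothelium and COL1A1 of fibroblasts had between 43 and 63 counts. The keratin genes were both called lower by the rule given below, at log2 ratios of −0.40 (−0.42 to −0.37) for KRT8 and −0.33 (−0.35 to −0.31) for KRT18. By that rule 9.12% of all genes measured were called lower. The lung lineage gene NKX2-1 had 5 counts in the PHF12 KD library and 17 in the control library, under the minimum used below, at −1.85 (−3.64 to −0.35). Their part in the results below was not tested. In bulk RNA, fewer cells of a type and less RNA per cell cannot be told apart.

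The summed level of the complex I subunit genes differed by less than counting error between the libraries. The 37 subunit genes together had 66215 counts in the PHF12 KD library and 62397 in the control library. After scaling for library size the ratio of these sums was 1.0 (0.990 to 1.01). Subunit genes took 0.254% of all counts in the PHF12 KD library and 0.252% in the control library. Their median log2 ratio was −0.01, the same to 2 decimals as that of all 14559 genes measured, those averaging at least 1 CPM (counts per 1000000) over the libraries. Of the 37 subunit genes, 18 lay above 0 and 19 below, and 25 were within 1.1-fold of equality.

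All members but NDUFA4L2 passed the minimum of 1 CPM, 47 in all. A gene was called higher or lower when its ratio was at least 1.2-fold and its counting interval excluded equality. Of the 47 members 2 were called higher, NDUFB6 among them, against 8.06% of all genes measured. Only NDUFS8 was called lower, 1 of 47, against 9.12% of all genes measured. Among protein-coding genes of at least 10 CPM, which are closer to the members in abundance, 7.32% were called higher and 8.11% lower. No member reached 1.5-fold, a size at which 1.80% of all genes measured were called higher and 1.97% lower. The spans of 12 of the 47 members overlap a measured gene on the other strand, and without strand-specific counting, which the sources do not state, their reads could be mixed.

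Without the rule of size, the interval alone lay above equality for 11 of the 47 members and below it for 10. The shares of all genes measured were 20.3% above and 20.9% below. For protein-coding genes of at least 10 CPM they were 24.9% and 25.0%. The standard deviation of the log2 ratio was 0.162 over the 37 subunit genes, against 0.271 over all genes measured and 0.204 over protein-coding genes of at least 10 CPM. Without NDUFS8, which was left out after its value was seen, the value for the subunit genes was 0.135. Leaving out the most extreme gene lowers a spread, so this value is not comparable with those of the other sets.

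**Figure D1:**
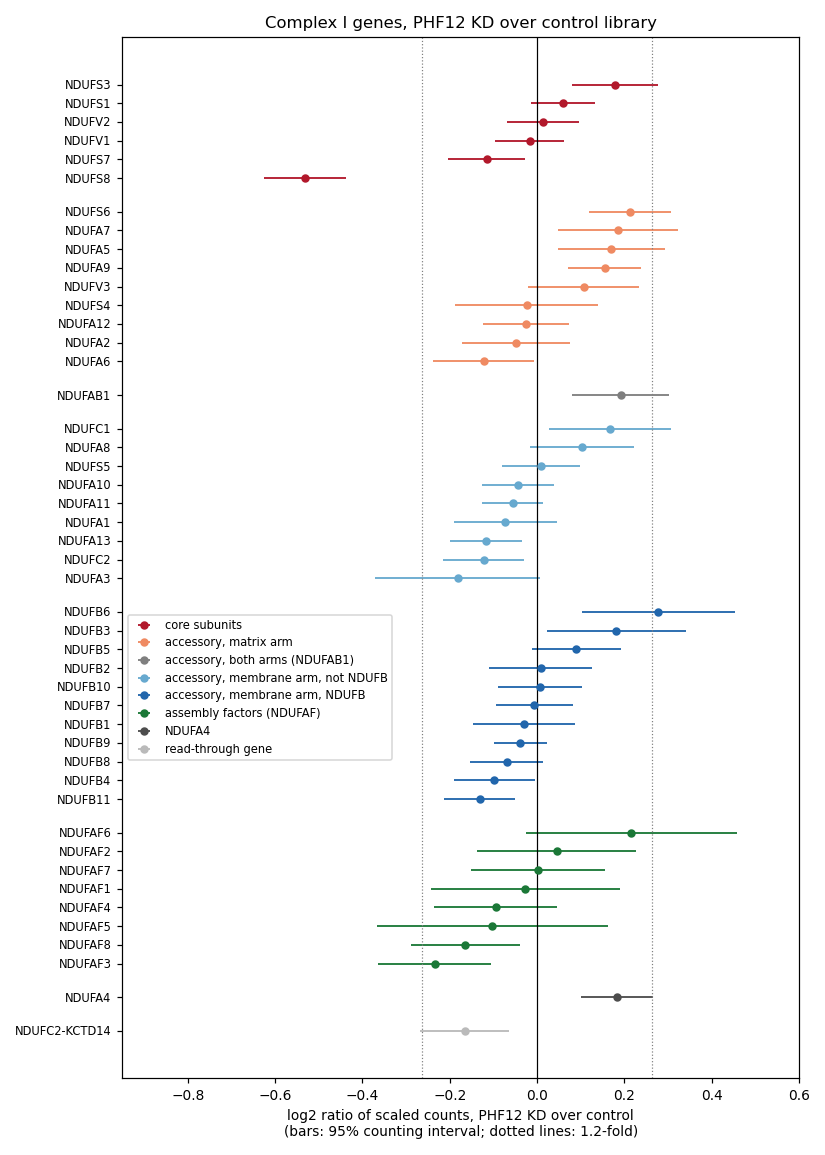
Log2 ratio of scaled counts, PHF12 KD over control, for the complex I genes named in the text that passed the minimum (x axis), grouped by role (y axis); points are ratios, bars 95% counting intervals, and dotted lines mark 1.2-fold. NDUFS8, a core subunit, lies furthest to the left at −0.53, and NDUFB6 is at 0.28.

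The nuclear core subunits all sit in the matrix arm, and one of them had the lowest ratio of the measured family. NDUFS8, which carries a pair of the iron-sulfur clusters leading to the quinone, had 1574 counts (230 TPM) in the PHF12 KD library and 2145 counts (327 TPM) in the control library. Its ratio was 0.692 (0.648 to 0.739), and 5.81% of all genes measured had a larger absolute log2 ratio. NDUFS8 belongs to the quinone-reducing part of the enzyme.

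NDUFS3, another subunit of the quinone-reducing part, had 1854 counts in the PHF12 KD library and 1545 in the control library, a log2 ratio of 0.18 (0.08 to 0.28). NDUFS7, which holds the last cluster before the quinone, had 2064 counts in the PHF12 KD library and 2108 in the control library, a log2 ratio of −0.12 (−0.20 to −0.03). The 3 core subunits of the NADH-oxidising tip were close to equality. NDUFV1, which binds NADH and the flavin, had 2688 counts in the PHF12 KD library and 2565 in the control library, a log2 ratio of −0.02 (−0.10 to 0.06). NDUFV2, which holds a cluster beside it, had 2476 counts in the PHF12 KD library and 2314 in the control library, at 0.01 (−0.07 to 0.10). NDUFS1, the largest core subunit and a carrier of several clusters, had 3164 counts in the PHF12 KD library and 2864 in the control library, at 0.06 (−0.01 to 0.13). NDUFV2 overlaps the antisense gene NDUFV2-AS1, which had only 35 counts in the PHF12 KD library and 36 in the control library.

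Over the 7 core genes the ratio of summed counts was 1.0 (0.978 to 1.02), and their median log2 ratio was 0.01. On the log2 scale the ratio of sums was 0.07 without NDUFS8, a gene left out after its value was seen.

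NDUFS8 lies on chromosome 11 from 68030681 to 68036644 on the plus strand (hg38). It overlaps no gene that passed the minimum. The 6 measured protein-coding genes with start sites nearest to its own lay between −0.19 for UNC93B1 and 0.07 for KMT5B. The closest, the proton pump subunit gene TCIRG1, had its start 8319 bases away and a log2 ratio of −0.06 (−0.15 to 0.04). NDUFV1, on the same chromosome arm as NDUFS8, was also near equality.

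**Figure D2:**
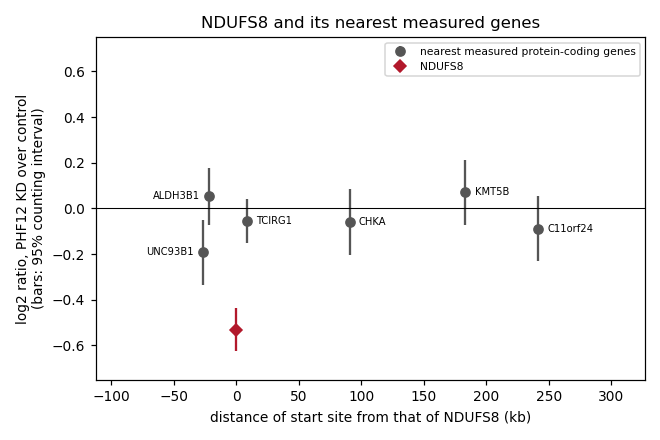
Log2 ratio, PHF12 KD over control (y axis), of NDUFS8 (diamond) and of the 6 measured protein-coding genes nearest to it (circles), by distance between start sites in kilobases (x axis); bars are 95% counting intervals. No neighbour of NDUFS8 lies as low as its −0.53. NDUFS8 was picked for its low ratio, and only 5.81% of all genes measured had a larger absolute log2 ratio. Few sets of 6 genes would therefore hold one as low.

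The promoter of NDUFS8 is shown because the gene had the lowest ratio of the members that passed the minimum; the RefSeq promoter table (build GRCh38.p14) held 40 of the 48 genes. The window is the table's stretch of DNA around the start site, chr11:68030431-68030730, plus strand. Capitals mark CCAAT or its reverse complement ATTGG, the letters bound by the factor NF-Y.
NDUFS8: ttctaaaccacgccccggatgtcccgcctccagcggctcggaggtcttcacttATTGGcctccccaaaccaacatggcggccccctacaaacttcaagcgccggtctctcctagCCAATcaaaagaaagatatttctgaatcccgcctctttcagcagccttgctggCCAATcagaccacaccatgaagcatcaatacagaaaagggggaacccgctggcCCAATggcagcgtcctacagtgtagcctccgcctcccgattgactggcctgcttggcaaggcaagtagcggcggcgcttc

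It held these letters 4 times, as did no other complex I promoter in the table, while 1.64% of the 10329 measured protein-coding genes with a promoter held them at least 4 times. The median log2 ratio of those 169 genes was −0.01, as was that of the remaining 10160 genes. At least 1 match was present in 11 of the 40 complex I promoters, or 27.5%, against 36.7% of all. The GC box GGGCGG was not found in the NDUFS8 window on either strand, and 57.5% of complex I promoters and 70.9% of all held it.

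The 9 accessory subunit genes of the matrix arm had a median log2 ratio of 0.11, with 5 above 0 and 4 below. Their summed counts were 12475 in the PHF12 KD library and 11120 in the control library, a ratio of 1.06 (1.03 to 1.09). None of the 9 was called by the rule of size, against 8.06% of all genes measured called higher and 9.12% called lower. NDUFS6, a zinc-binding subunit added late in assembly, stood highest at 0.21 (0.12 to 0.31), with 2078 counts in the PHF12 KD library and 1691 in the control library. It overlaps MRPL36, a mitochondrial ribosomal protein gene on the other strand, by 26 bases, and MRPL36 had 886 counts in the PHF12 KD library and 721 in the control library.

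NDUFA7, next to it, had 968 counts in the PHF12 KD library and 803 in the control library, at 0.18 (0.05 to 0.32). NDUFA5 had 1192 counts in the PHF12 KD library and 999 in the control library, at 0.17 (0.05 to 0.29). NDUFA9, related to short-chain dehydrogenases and set beside the quinone site, had 2540 counts in the PHF12 KD library and 2152 in the control library, at 0.15 (0.07 to 0.24). For these 4 genes, of 9, the counting interval lay above 0, though none was 1.2-fold higher. The interval lay above 0 for 20.3% of all genes measured and 24.9% of protein-coding genes of at least 10 CPM. NDUFV3, at the flavin end, had 1072 counts in the PHF12 KD library and 939 in the control library, at 0.11 (−0.02 to 0.23).

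The remaining matrix-arm genes lay below 0, between −0.02 for NDUFS4 and −0.12 for NDUFA6, and only the interval of NDUFA6 excluded 0. NDUFS4, a subunit known from mutations in Leigh syndrome, had 632 counts in the PHF12 KD library and 606 in the control library, at −0.02 (−0.19 to 0.14). NDUFA12 had 1693 counts in the PHF12 KD library and 1625 in the control library, at −0.03 (−0.12 to 0.07). NDUFA2, which has a thioredoxin-like fold, had 1086 counts in the PHF12 KD library and 1059 in the control library, at −0.05 (−0.17 to 0.07). NDUFA6, a LYR-motif protein that anchors an acyl carrier protein, was the lowest at −0.12 (−0.24 to −0.01), with 1214 counts in the PHF12 KD library and 1246 in the control library. NDUFAB1, the mitochondrial acyl carrier protein present in both arms, stood at 0.19 (0.08 to 0.30), with 1463 counts in the PHF12 KD library and 1208 in the control library. NDUFAB1 and its partner NDUFA6 therefore lay on opposite sides of equality.

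The 20 accessory subunits of the membrane arm had a median log2 ratio of −0.03, with 8 above 0 and 12 below. Their summed counts were 36269 in the PHF12 KD library and 34974 in the control library, a ratio of 0.978 (0.964 to 0.992). The median of the matrix-arm accessory genes was 0.14 higher than this on the log2 scale. Genes are not replicates of a condition, so this difference was not tested.

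Among the 11 NDUFB genes, which encode subunits of the distal membrane arm, 5 lay above 0 and 6 below, with a median of −0.01. NDUFB6 was the only one called higher, with 608 counts (48.2 TPM) in the PHF12 KD library and 473 counts (39.1 TPM) in the control library, a ratio of 1.21 (1.07 to 1.37). This lies just past 1.2-fold, and the call was lost in 2 alternatives that kept the 1.2-fold size. It was also lost at 1.5-fold and at 2-fold, and the alternative without opposite-strand overlaps left the gene out. The log2 ratio of NDUFB6 was 0.26 with the PHF12 KD library thinned to the control total and 0.25 with the GC and length trend across genes removed, against 0.28 in the counts as deposited. It lies on chromosome 9 from 32553001 to 32573159 and shares 13860 bases of its span with SMIM27 on the other strand, which had 122 counts in the PHF12 KD library and 97 in the control library. The part of these reads in the ratio of NDUFB6 was not tested. NDUFB3 stood at 0.18 (0.02 to 0.34), with 713 counts in the PHF12 KD library and 593 in the control library.

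NDUFB11, an X-linked subunit, was the lowest NDUFB gene at −0.13 (−0.21 to −0.05), with 2374 counts in the PHF12 KD library and 2453 in the control library. NDUFB4 stood at −0.10 (−0.19 to −0.01). The remaining 7 NDUFB genes, NDUFB1, NDUFB2, NDUFB5, NDUFB7, NDUFB8, NDUFB9 and NDUFB10, lay between −0.07 for NDUFB8 and 0.09 for NDUFB5, each with an interval that included 0. NDUFB9 had the most counts of any member, 4432 in the PHF12 KD library and 4291 in the control library, at −0.04 (−0.10 to 0.02). For this gene counting error limits the ratio to between 0.934 and 1.02.

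The 9 membrane-arm subunits outside the NDUFB series lay between −0.18 and 0.17, with a median of −0.06 and 3 above 0. NDUFC1, a single-pass membrane subunit, was the highest at 0.17 (0.03 to 0.31), with 922 counts in the PHF12 KD library and 775 in the control library. It overlaps NAA15 on the other strand by 1053 bases. NDUFA8, one of the subunits folded by disulfide bonds after import, stood at 0.10 (−0.02 to 0.22), and NDUFS5, of the same kind, at 0.01 (−0.08 to 0.10). NDUFA3 was the lowest at −0.18 (−0.37 to 0.01), with 448 counts in the PHF12 KD library and 479 in the control library, so that its interval is among the widest of the subunit genes.

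NDUFA13, also known as GRIM-19, had 2381 counts in the PHF12 KD library and 2435 in the control library, at −0.12 (−0.20 to −0.03). NDUFC2 had 1837 counts in the PHF12 KD library and 1886 in the control library, at −0.12 (−0.22 to −0.03). The span of NDUFC2 lies wholly inside that of NDUFC2-KCTD14, which had 1525 counts in the PHF12 KD library and 1613 in the control library, at −0.17 (−0.27 to −0.06). The reads of this gene pair cannot be told apart with certainty, and the pair is not 2 independent observations. NDUFA1, NDUFA10 and NDUFA11 lay between −0.07 and −0.04, with intervals that included 0.

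No assembly factor gene of the NDUFAF series was called, against 8.06% of all genes measured called higher and 9.12% called lower. Their summed counts were 4940 in the PHF12 KD library and 4949 in the control library, a ratio of 0.941 (0.905 to 0.979). The median log2 ratio over the 8 genes was −0.06, with 3 above 0 and 5 below. NDUFAF3 and NDUFAF4 act together on early intermediates of the quinone-reducing part. NDUFAF3 had 940 counts (68.9 TPM) in the PHF12 KD library and 1043 counts (79.7 TPM) in the control library, at −0.23 (−0.36 to −0.11). NDUFAF4 had 815 counts in the PHF12 KD library and 821 in the control library, at −0.10 (−0.24 to 0.05). NDUFAF3 shares 1054 bases with DALRD3 on the other strand, which had 1057 counts in the PHF12 KD library and 972 in the control library.

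NDUFAF5 and NDUFAF8 form another pair, an enzyme that hydroxylates NDUFS7 and the small protein that stabilises it. NDUFAF8 had 1024 counts in the PHF12 KD library and 1082 in the control library, at −0.16 (−0.29 to −0.04). NDUFAF5 had 239 counts in the PHF12 KD library and 242 in the control library, at −0.10 (−0.37 to 0.16), and at this depth a difference of that size was not detectable. NDUFAF7, an arginine methyltransferase, had 716 counts in the PHF12 KD library and 674 in the control library, at 0.00 (−0.15 to 0.16).

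NDUFAF1, which acts in the membrane-arm assembly complex, had 362 counts in the PHF12 KD library and 348 in the control library, at −0.03 (−0.24 to 0.19). NDUFAF2, a paralog of NDUFA12 that leaves when NDUFA12 is added, had 525 counts in the PHF12 KD library and 480 in the control library, at 0.04 (−0.14 to 0.23). NDUFAF6 was the highest of the series at 0.22 (−0.03 to 0.46), on 319 counts in the PHF12 KD library and 259 in the control library, and it overlaps CCNE2 and TP53INP1 on the other strand. The intervals of NDUFAF3 and NDUFAF8 lay below 0, 2 of 8, a share near the 20.9% of all genes measured and the 25.0% of protein-coding genes of at least 10 CPM.

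The median log2 ratio of core and accessory subunits was 0.06 above that of the NDUFAF genes. The difference has no replicate check and was not tested. The standard deviation of single genes was 0.162 among the subunits and 0.139 among the NDUFAF genes. The NDUFAF genes ranged between −0.23 and 0.22, and the quartiles of the subunit genes were −0.07 and 0.15. The core and accessory medians, 0.01 and −0.02, differed by 0.03.

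**Figure D3:**
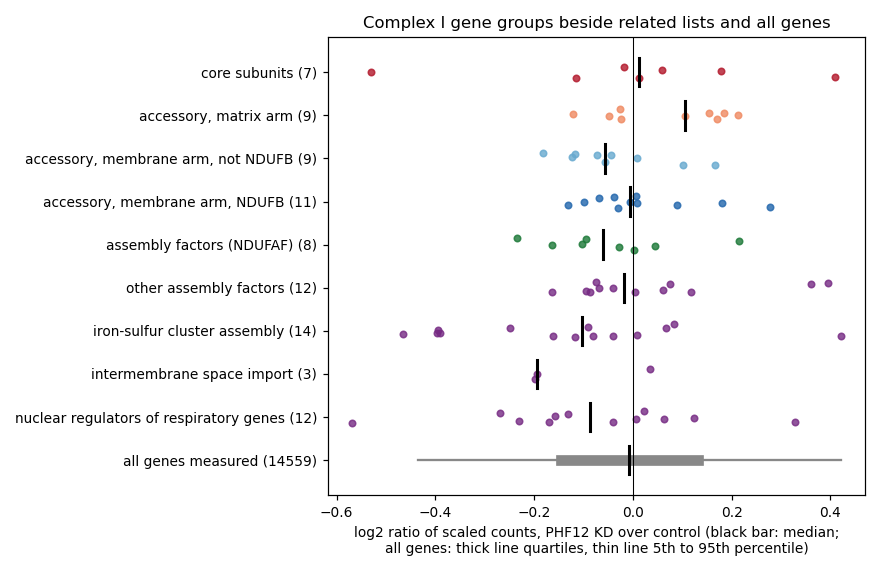
Log2 ratio, PHF12 KD over control (x axis), of each measured gene (points) in the complex I groups and in 4 related lists (y axis, number of genes in brackets), with black bars at medians; for all 14559 genes measured, the thick line spans the quartiles and the thin line the 5th to 95th percentile. The subunit and NDUFAF medians lie between −0.06 and 0.11, and the iron-sulfur cluster list has its median at −0.10. In that list 10 of 14 genes lie below 0, against 7519 of all 14559 genes measured.

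Levels differed far more between members than between libraries. On the deposited TPM scale, members ranged between 1.03 and 692 in the PHF12 KD library and between 1.35 and 698 in the control library. NDUFB9 was the most abundant in both, with 692 TPM in the PHF12 KD library and 698 TPM in the control library. It was followed in the PHF12 KD library by NDUFA13 at 493 TPM, NDUFS5 at 457 TPM, NDUFS6 at 433 TPM and NDUFB1 at 419 TPM. The counting intervals of NDUFS5 and NDUFS6 overlapped in the PHF12 KD library but not in the control library, where NDUFS5 had 447 TPM and NDUFS6 367 TPM. NDUFS8 was 11th of the 48 genes in the PHF12 KD library and 6th in the control library.

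The median TPM of the subunit genes was 128 in the PHF12 KD library and 133 in the control library, and that of the NDUFAF genes was 29.3 in the PHF12 KD library and 30.2 in the control library. NDUFAF5, NDUFAF6 and NDUFAF7 were the lowest apart from NDUFA4L2, at 4.02, 3.07 and 5.86 TPM in the PHF12 KD library. Across the 45 subunit and NDUFAF genes Spearman's rho between the libraries was 0.993; these points share the gene lengths of the table. Those lengths ran between 317 and 13181 bases over the members, and for genes such as NDUFA10 (12491 bases) they far exceed the transcript used here for its sequence (1313 bases), so the TPM of such genes depends on the length chosen. Across the same 45 genes the log2 ratio had a rho of 0.10 with listed length and −0.16 with mean CPM.

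**Figure D4:**
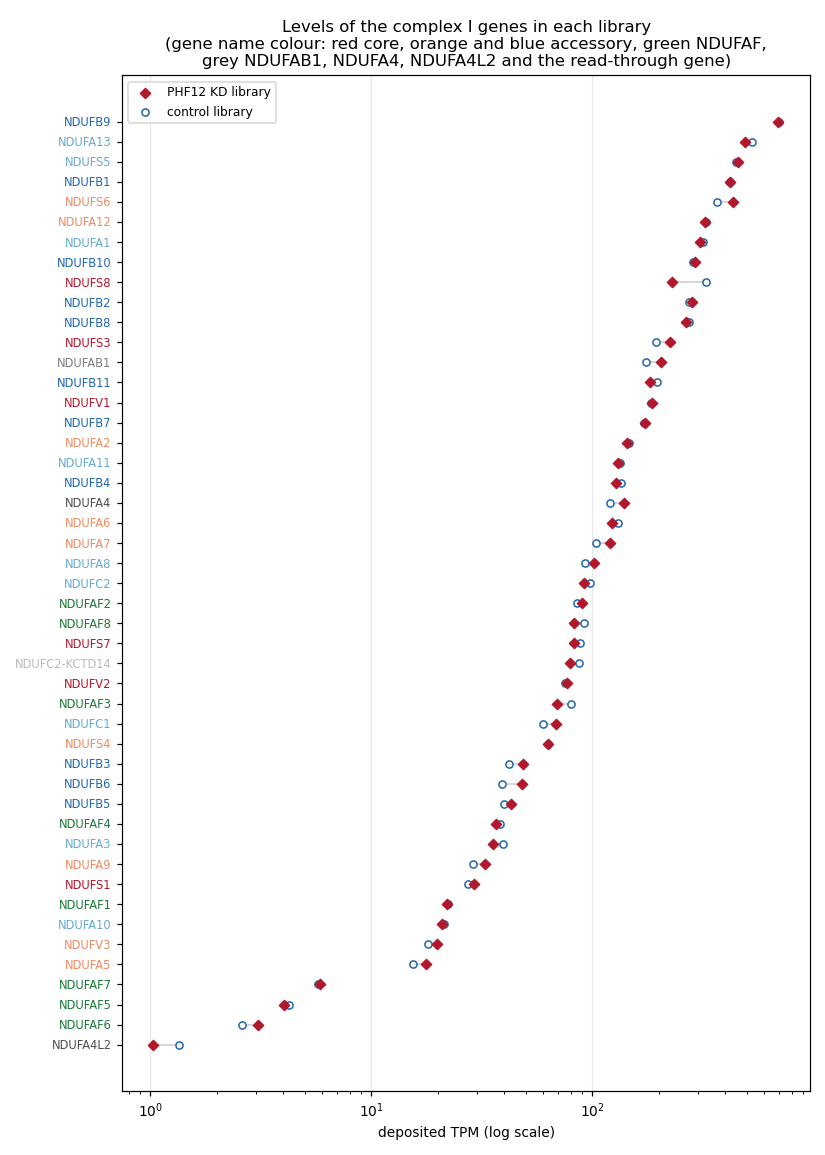
Deposited TPM on a log axis (x axis) of the complex I genes named in the text, ordered by mean TPM (y axis), in the PHF12 KD library (filled diamonds) and the control library (open circles). The pairs of symbols lie close together for most genes. The widest gaps are those of NDUFS8, NDUFA4L2 and NDUFB6, with smaller ones for genes such as NDUFS6 and NDUFAF6. Levels run between 1.03 TPM for NDUFA4L2 and 692 TPM for NDUFB9 in the PHF12 KD library.

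Genes with an NDUF symbol that encode no complex I subunit were set apart. NDUFA4, now assigned to cytochrome c oxidase (complex IV), had 2617 counts (139 TPM) in the PHF12 KD library and 2174 counts (120 TPM) in the control library, a log2 ratio of 0.18 (0.10 to 0.27). Its hypoxia-inducible paralog NDUFA4L2 was at the edge of detection, with 12 counts in the PHF12 KD library and 15 in the control library, and its ratio of 0.754 had an interval from 0.322 to 1.73. On the TPM scale it stood at 1.03 in the PHF12 KD library and 1.35 in the control library, far below NDUFA4 in both.

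Promoters of complex I genes were searched on both strands for letters bound by factors known to control respiratory genes. The NRF1 letters GCGCATG was present in 8 of the 40 complex I promoters (20.0%), against 7.69% of the 10329 measured genes with a promoter. The ETS letters CCGGAAG, bound by GABP, were present in 6 (15.0%), against 19.6% of all. The YY1 letters AAGATGGC were also present in 6 (15.0%), against 5.40% of all. In NDUFA8, NDUFAF5 and NDUFB4 the NRF1 letters overlap on both strands, and each promoter is counted once. The YY1 windows are shown because they line up at one place, 11 to 26 bases from the start site on the gene's own strand (GRCh38.p14, 5′ to 3′ on the gene's strand, the letters in capitals).
NDUFA3, chr19:54102866-54102893, plus strand: cgcggagacaAAGATGGCtgcgagtaag
NDUFA6, chr22:42090730-42090757, minus strand: atgctttggcAAGATGGCggggagcggc
NDUFA7, chr19:8321344-8321371, minus strand: tcgcggacggAAGATGGCgtccgccacc
NDUFA9, chr12:4649114-4649141, plus strand: attgtgggaaAAGATGGCggctgccgca
NDUFS4, chr5:53560650-53560677, plus strand: tgcctgcagcAAGATGGCggcggtgtca
NDUFS7, chr19:1383914-1383941, plus strand: ggccgaggccAAGATGGCggtgctgtca

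In all 6 genes a GENCODE release 29 transcript has these letters at its annotated start codon, with the ATG inside them as that codon. The same holds for 43.2% of 548 measured genes that have the letters on either strand of the promoter window and a coding transcript. Whether the match in the promoter is the same copy as that in the transcript was not checked. Another 4 windows, with the NRF1 letters on the gene's strand in capitals, are shown because their genes lie on either side of equality (GRCh38.p14).
NDUFS6, chr5:1801351-1801377, plus strand: cagaagccgtGCGCATGcgttagcgct
NDUFA8, chr9:122159767-122159793, minus strand: gttgccggatGCGCATGcgcaggcgcc
NDUFB4, chr3:120596167-120596193, plus strand: agagcacttcGCGCATGcgcatatcac
NDUFAF5, chr20:13785014-13785040, plus strand: agccgcgctgGCGCATGcgcacaaaaa

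Genes holding a motif did not share a direction. Of the 8 genes with the NRF1 letters, 2 had a log2 ratio above 0, NDUFS6 and NDUFA8, and the median was −0.10, against −0.01 for complex I genes without it. The medians were −0.04 with and −0.02 without the ETS letters, and −0.07 with and −0.02 without the YY1 letters. These are matches of letters in a window, not measured sites.

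Other sequences searched were 7-base words found earlier, in these same libraries, to be over-represented in the 3′ UTRs of genes at least 1.5-fold lower (ACATCGA and CATCGAA) or higher (TCGGAGA and ATCGGAG). In the coding transcripts of GENCODE release 29, none of the 47 measured complex I genes held any of these words in the 3′ UTR. In the coding sequence, 4 of 47 (8.51%) held a word of the lower genes, against 12.7% of 12365 measured genes. None held a word of the higher genes in the coding sequence, against 11.2% of all. Coding sequences were short here, with a median of 519 bases over complex I genes and 1446 bases over all. The 4 sites are shown because their genes include the 2 lowest ratios among members that passed the minimum (hg38, transcript strand, the word in capitals).
NDUFS8, chr11:68036301-68036327, plus strand: acccgctatgACATCGAcatgaccaag
NDUFAF3, chr3:49022434-49022460, plus strand: caggcaatgtACATCGAcagctacaac
NDUFB4, chr3:120596526-120601123 across an exon junction, plus strand: gccgagggctCATCGAAaatcctgcct
NDUFA10, chr2:240014775-240014801, minus strand: ctggtgatttACATCGAtgtgcccgtt

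All 4 genes had a log2 ratio below 0, at −0.53 for NDUFS8, −0.23 for NDUFAF3, −0.10 for NDUFB4 and −0.04 for NDUFA10. The interval of NDUFA10 included 0 (−0.13 to 0.04). Ratios below 0 were held by 25 of the 47 members and by 7519 of all 14559 genes measured. Among the 1263 measured genes that were between 1.2- and 1.5-fold lower, 23.8% held a word of the lower genes in the coding sequence, against 7.66% of the 1018 genes that were 1.2- to 1.5-fold higher. The words were found on ratios from the same 2 libraries, so these shares are a description, and the part of the words in any ratio was not tested.

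Genes that build or regulate complex I were listed beside its members. The 12 assembly factors without an NDUF symbol had a median log2 ratio of −0.02, with 6 above 0 and 6 below. The membrane assembly protein gene TMEM186 was called higher, with 223 counts in the PHF12 KD library and 160 in the control library, at 0.39 (0.09 to 0.70). NUBPL, which delivers iron-sulfur clusters to complex I, was called higher too, with 226 counts in the PHF12 KD library and 166 in the control library, at 0.36 (0.07 to 0.66). Both have wide counting intervals, and the other 10 lay between −0.16 for TMEM70 and 0.12 for ACAD9. The share called higher over all genes measured was 8.06%.

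The mitochondrial iron-sulfur cluster machinery, which supplies the clusters of the core subunits, had a median of −0.10 over 14 genes, against −0.01 over all genes measured. Of the 14 genes 10 lay below 0, against 7519 of all 14559 genes measured. The share above 0 was 28.6% in the list and 48.4% over all genes measured. The ratio of the summed counts of the list was 1.01 (0.989 to 1.02). HSPA9 alone held 15328 of the list's 26063 counts in the PHF12 KD library and 13642 of 24424 in the control library. Its log2 ratio was 0.08 (0.05 to 0.12), so the sum mostly follows this gene. In all, 4 of the 14 were called lower, against 9.12% of all genes measured. Among them were FDX2 and FDXR (the ferredoxin that feeds electrons to the machinery and its reductase) and IBA57 (a late-acting factor). FDXR was the lowest, with 222 counts in the PHF12 KD library and 289 in the control library, at −0.47 (−0.72 to −0.21). FDX2 stood at −0.39 and IBA57 at −0.40. NFS1, the cysteine desulfurase that provides the sulfur, was the 1 gene of the list called higher, against 8.06% of all genes measured. It had 1066 counts in the PHF12 KD library and 751 in the control library, at 0.42 (0.28 to 0.56).

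Among 12 nuclear regulators of respiratory genes the median was −0.09, with 5 above 0. The nuclear receptor gene ESRRA was the lowest and was called lower, with 1032 counts in the PHF12 KD library and 1443 in the control library, at −0.57 (−0.68 to −0.45). TFB2M, a mitochondrial transcription factor, was also called lower at −0.27 (−0.44 to −0.10). The coactivator gene PPARGC1A was called higher at 0.33 (0.02 to 0.64) on 209 counts in the PHF12 KD library and 157 in the control library. The calls were thus 2 lower and 1 higher of 12, against 9.12% and 8.06% of all genes measured. NRF1 itself stood at −0.16 (−0.34 to 0.02), GABPA at 0.12 (0.02 to 0.22) and YY1 at 0.06 (0.02 to 0.11). The importers of disulfide-folded subunits, AIFM1, CHCHD4 and GFER, had log2 ratios of 0.03, −0.19 and −0.20, and none was called.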

How the data were processed

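Poly(A) RNA of H1299 cells was sequenced; HISAT2, HTSeq and the build hg38 are named, without roles, per the submitters' processing notes. Versions and strandedness were not given in the sources used here. For each library the deposited table gives a raw count per gene, a listed gene length, and a TPM value. The files' TPM values equal count per length scaled to 1000000, within an absolute difference of 1e-06 TPM.

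From the counts, library sizes were scaled with TMM factors (edgeR 4.0.16 in R 4.3.3). These were 1.0 for the PHF12 KD library and 0.997 for the control library. Genes averaging at least 1 CPM over the libraries were kept. The log2 ratio is PHF12 KD over control without a pseudocount, with an exact conditional (Clopper-Pearson) 95% interval from scipy 1.17.1. With 1 library per group no test was made. The ratios compare these 2 libraries, not the conditions, and intervals cover counting error only, since reads without molecular identifiers are not independent molecules. The scripts were tested on simulated counts.

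The members and gene lists were chosen with earlier results of these data known. Core and NDUFAF genes are given, and in accessory groups and other lists the called genes and the highest and lowest (other lists from 5 CPM). Some further genes were chosen after seeing their values, and some genes the rule covers, which enter the sums, medians and counts, are not reported here. Alternatives used DESeq2 1.42.0 size factors, other filters and folds, thinned counts, deposited TPM and removal of length, expression and GC trends.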

Additional observations from a re-analysis of the deposited data

How the results depend on the processing

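Across 18 alternatives, 187 of 198 comparisons of a group value with its alternative lay within a set margin of the value given above. For summed counts the margin was their counting error, and for counts of calls 1.5 times. For medians it came from the median counting error of single genes in the group, which is not the error of a median. Some comparisons could not move, since the fold setting cannot alter medians or sums. A common scaling likewise cancels in the difference of medians. The 187 is therefore not a measure of robustness. No called member changed direction, but values near 0 changed sign. The subunit median was 0.02 with the deposited TPM and 0.01 with DESeq2 size factors, and with the length and expression trend removed the core median was −0.01 and the log2 ratio of summed accessory counts −0.02. The number of members called higher was 1 with the GC and length trend removed, with the PHF12 KD library thinned to the control total, and without members that overlap a measured gene on the other strand. It was 0 at 1.5-fold and 2-fold. The number called lower was 0 at 1.5-fold, at 2-fold and without NDUFS8, an alternative chosen after seeing the data, which also put the log2 ratio of summed core counts at 0.072. The log2 ratio of summed accessory counts was 0.020 with DESeq2 size factors and 0.026 with the deposited TPM, against 0.00 as given above. The log2 ratio of NDUFB6 was 0.26 after thinning and 0.25 once the GC and length trend was removed, where it was no longer called, while NDUFS8 was called in every alternative that kept it and the 1.2-fold size. Over the alternatives, the subunit median lay between −0.02 and 0.02, the NDUFAF median between −0.10 and −0.03, and their difference between 0.02 and 0.08. Of single genes, NDUFA11 stood at 0.03 and NDUFS7 at −0.01 with the GC and length trend removed. Up to 7 of 47 members changed sign when a trend was removed. The all-gene median moved by at most 0.02. No paired analysis was possible because each group has 1 library and the labels carry no replicate numbers. With 1 library a group, culture, library preparation and knockdown cannot be told apart, and counting error limits genes of few counts, such as NDUFA4L2.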

Other observations

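Of the genes with an NDUF symbol that are not protein-coding, the divergent transcript NDUFA6-DT had 17 counts in the PHF12 KD library and 26 in the control library. NDUFB2-AS1 had 45 counts in the PHF12 KD library and 47 in the control library, and NDUFV2-AS1 had 35 in the PHF12 KD library and 36 in the control library. NDUFV1-DT had 2 counts in the PHF12 KD library and 1 in the control library. The pseudogene NDUFAF4P1, the only listed pseudogene with the symbol of a member, had 1 count in the PHF12 KD library and 0 in the control library.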
